A study of Rattus norvegicus with 15 samples.

Results

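The complement system is described here through the transcripts of 37 genes for complement components, receptors and regulators in rat multifidus muscle, the deep muscle along the spine. The genes were taken by symbol from the deposited table of 37991 genes. All 37 were found, and 28 of them passed the filter on low counts, as did 17201 genes in all. RNA from the multifidus of male, wild type Sprague Dawley rats was sequenced in 15 libraries. Their age is given as 12 weeks, which the study's methods state for the division into groups, before tissue was taken. The control group (2 libraries) had no injury. The other 4 groups had spinal surgery, a hemilaminectomy with ligation of a lumbar spinal nerve on the left. The surgery group (2 libraries) had no treatment afterwards, and so no injection. The pMT group (4 libraries) received mitochondria isolated from human plasma, at 25 μg in 100 μL of buffer per site and 50 μg per rat, into the left paraspinal muscle. The VitD group (3 libraries) received cholecalciferol at 150 μg per site and 300 μg per rat, and the pMT/VitD group (4 libraries) received both at these doses. In the pMT group the mitochondria, from another species than the host, were given on day 14 after surgery and tissue was taken on day 28. Days for the groups with VitD are not given in the sources used here. Nothing says that the libraries of a group came from separate animals, so p-values measure the spread between these libraries, which may be technical.

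Complement is a cascade of plasma and tissue proteins that marks cells and debris for removal. The classical branch starts when C1q binds to a target, and its proteases C1r and C1s then cleave C4 and C2. The lectin branch reaches the same C4 and C2 through mannose-binding lectins and their proteases (Masp1, Masp2), and the alternative branch amplifies through factor B (Cfb), factor D (Cfd) and properdin (Cfp). All branches meet at C3, after which C5 to C9 can form a membrane pore. Small fragments of C3 and C5 signal through receptors on leukocytes, and regulators such as Cd55, Cd59, Serping1 and clusterin (Clu) restrain the cascade. Most circulating complement protein is made in the liver, while macrophages are a known source of C1q and fibroblasts of C1r, C1s, C3, C4 and Serping1 within tissues.

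C4a, C4b and C2 of the classical branch, C3, Cfd and the terminal component C6 were higher than in uninjured muscle in both operated groups that received no pMT. The C1q chains passed the test in the VitD group. In the surgery group they missed it in the fit over all 15 libraries and passed with pMT 4 and pMT/VitD 4 left out. Between either group that received pMT and control, 0 of 28 members and 0% of all genes were called. In the mean of the pMT and pMT/VitD groups (8 libraries) set against the mean of the surgery and VitD groups (5 libraries), called the pooled comparison here, 15 of the 28 members tested were lower and 1 was higher. Expression fell 7.94-fold for C6, 5.11-fold for C4a, 3.96-fold for C4b and 3.33-fold for C3, with log2 fold changes and SE of -2.99 ± 0.30, -2.35 ± 0.11, -1.99 ± 0.22 and -1.74 ± 0.18. The protease Masp1 of the lectin branch went the other way, 1.56-fold higher. Of all 17201 genes tested, 13.3% were called lower and 10% higher in this comparison. A gene was called at a Benjamini-Hochberg adjusted p under 0.05 over all genes, in edgeR's quasi-likelihood F-test with 1 fit over the 15 libraries. The median log2 fold change was -0.58 over the 28 members and 0.01 over all genes.

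Library totals lay between 52342100 and 73557900 counts. Levels are given as CPM, counts per 1000000 counts of the library after scaling by TMM factors of 0.849 to 1.20. The floor used here, 3 counts, came to 0.0351 to 0.0648 CPM. The labelled tissue was plain in every library, since 6 genes of skeletal muscle fibres (Acta1, Ckm, Myh4, Myh1, Tnnt3 and Mylpf) summed to 112910 to 196439 CPM. A pair of libraries stood apart from their groups. Over the more abundant of the genes tested, pMT 4 was closer to pMT/VitD 1 to 3 (SD of log2 ratios 0.178 to 0.314) than to pMT 1 to 3 (0.365 to 0.550). Conversely, pMT/VitD 4 was closer to pMT 1 to 3 (0.194 to 0.253) than to pMT/VitD 1 to 3 (0.371 to 0.479). Both libraries received pMT by their labels, so the comparison of both pMT groups with both operated groups without pMT holds them on the same side whichever group each belongs to. Without these libraries that comparison called 19 members, among them the same 16. The others were C1r and Cfi, both lower, and Cd55, higher. Calls over all genes rose too, to 16.1% lower and 12.4% higher. The surgery pair differed by the least, 4.66 in mean squared difference per gene over its counting error, against 22 to 574 in other pairs of a group, and so still by more than sampling noise.

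**Figure D1:**
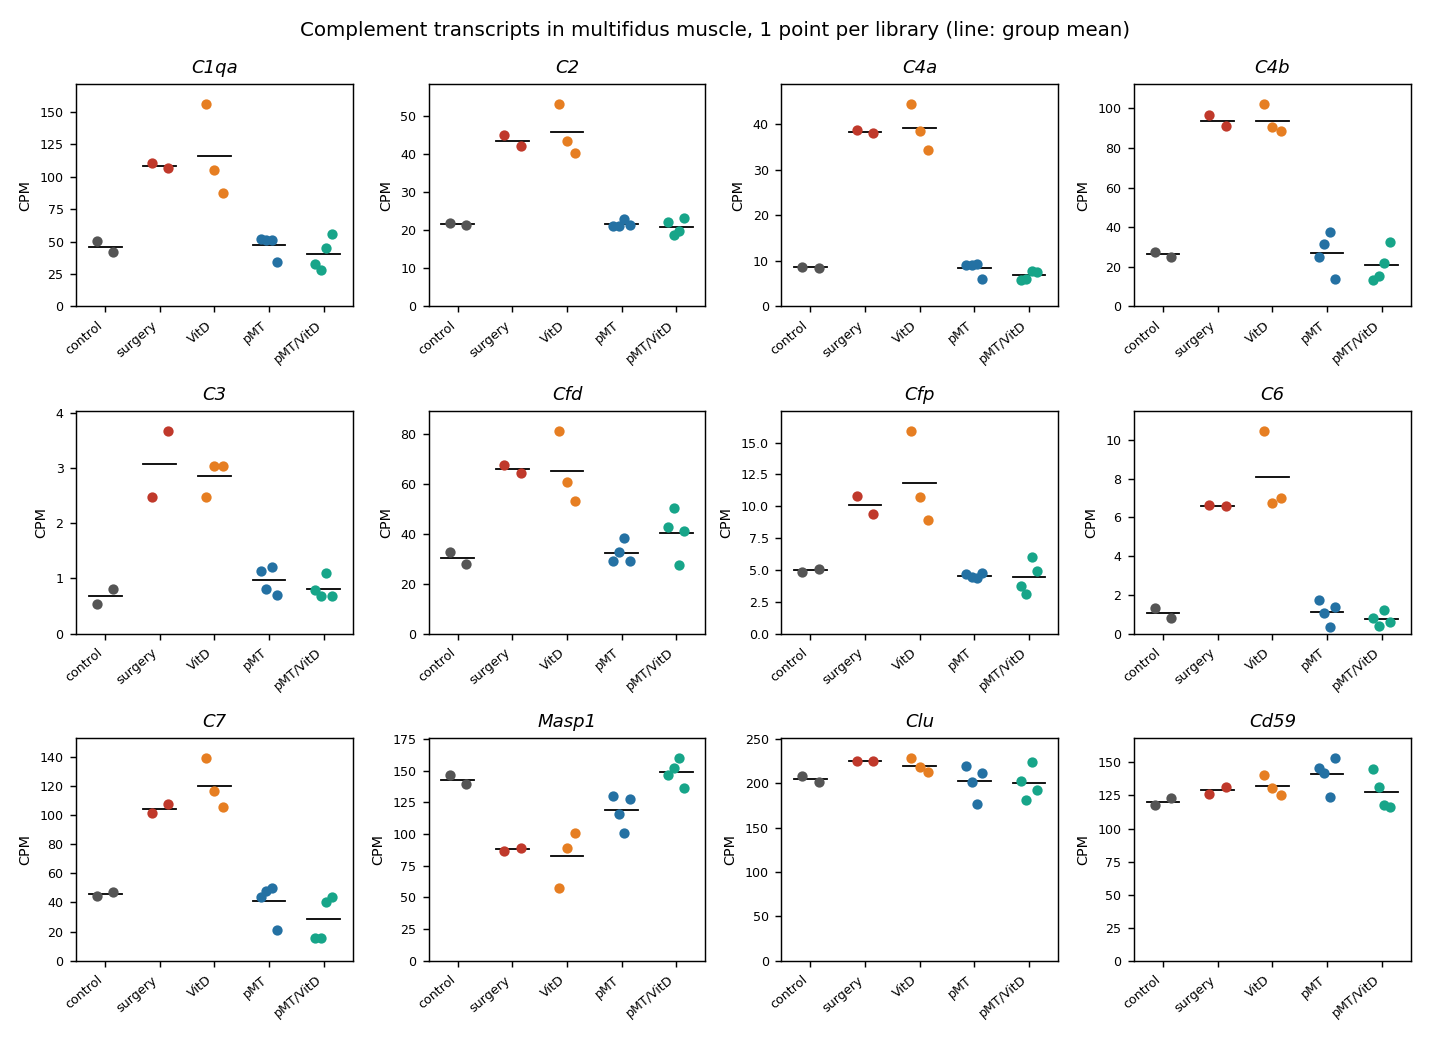
CPM (linear axes from 0) of 12 complement members in each of the 15 libraries, by group, with the group mean as a line. C1qa, C2, C4a, C4b, C3, Cfp, C6 and C7 lie higher in each surgery and VitD library than in any control, pMT or pMT/VitD library, as Cfd does, Masp1 lies lower there, and Clu and Cd59 keep similar levels in all groups.

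All 8 members of the classical branch passed the filter, and 7 of them were called lower in the pooled comparison. C1qa encodes a chain of C1q, the recognition molecule, and was the most abundant member of the branch per length. It measured 50.3 and 41.7 CPM in control, 110.0 and 107 in surgery, 156, 105 and 87.4 in VitD, 52.1, 51.2, 51.2 and 34.1 in pMT and 32.6, 28.3, 45.1 and 55.7 in pMT/VitD libraries. All surgery and VitD libraries lay above all others, and VitD 1 was the highest. With pMT the pooled log2 fold change was -1.36 ± 0.17 (SE, adjusted p = 0.000143).

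The other C1q chains followed. C1qb measured 35.3 and 33.1 CPM in control, 62.7 and 61.4 in surgery, 87.7, 56.5 and 50.8 in VitD, 35.0, 33.9, 31.5 and 25.8 in pMT and 24.1, 23.7, 28.4 and 35.3 in pMT/VitD libraries, with a pooled log2 fold change of -1.10 ± 0.13 (SE, adjusted p = 0.000101). C1qc measured 55.6 and 46.4 CPM in control, 93.7 and 88.7 in surgery, 114, 86.2 and 74.5 in VitD, 52.9, 53.4, 51.7 and 37.8 in pMT and 38.5, 35.3, 50.6 and 57.8 in pMT/VitD libraries, with a pooled log2 fold change of -0.95 ± 0.14 (SE, adjusted p = 0.000340). For both genes the 5 libraries of the surgery and VitD groups stood above the 10 other libraries. In GRCr8, the rat assembly of the annotation used for neighbours, the C1q genes lie side by side in the order C1qb, C1qc, C1qa. Summed over the 3 chains, C1q came to 121 to 141 CPM in control, 257 to 266 in surgery, 213 to 357 in VitD, 97.7 to 140.1 in pMT and 87.3 to 149 in pMT/VitD libraries.

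The proteases that C1q activates differed by less. C1s measured 58.9 and 67.5 CPM in control, 73.9 and 73.2 in surgery, 93.6, 73.1 and 65.7 in VitD, 68.3, 68.6, 68.9 and 45.5 in pMT and 44.0, 43.0, 58.1 and 63.6 in pMT/VitD libraries. The ranges overlapped, and the pooled log2 fold change was -0.40 ± 0.13 (SE, adjusted p = 0.0420), a call that was lost when any 1 of 8 libraries was left out (surgery 1 or 2, pMT 1 or 2, pMT/VitD 1 or 2, VitD 1 or 2), with adjusted p of 0.0513 to 0.125. C1r ranged over 67.1 to 133 CPM in the 15 libraries, with -0.29 ± 0.11 (SE, adjusted p = 0.0737) in the pooled comparison, and was not called. C1r stood just higher in the surgery and VitD libraries (from 108 CPM) than in all others (up to 107 CPM), and it lies next to C1s in GRCr8.

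C4 and C2 are the substrates of these proteases, and C4 is present as a pair of genes. C4a measured 8.66 and 8.53 CPM in control, 38.9 and 38.0 in surgery, 44.5, 38.6 and 34.3 in VitD, 9.03, 9.16, 9.32 and 6.01 in pMT and 5.86, 6.02, 7.89 and 7.67 in pMT/VitD libraries. No surgery or VitD library came near the others, the lowest at 34.3 CPM against 9.32 as the highest elsewhere. C4a had a pooled log2 fold change of -2.35 ± 0.11 (SE, adjusted p = 7.90e-08). C4b measured 27.7 and 25.1 CPM in control, 96.5 and 91.0 in surgery, 102, 90.7 and 88.5 in VitD, 25.2, 31.5, 37.6 and 13.8 in pMT and 13.2, 15.3, 21.9 and 32.5 in pMT/VitD libraries. The pMT libraries spread more for C4b than for C4a, and the highest of them stayed far under the lowest VitD library. For C4b the pooled log2 fold change was -1.99 ± 0.22 (SE, adjusted p = 5.70e-05). C4a and C4b are near-identical copies, and how the authors counted reads that match both is not stated, so the split between them is uncertain. The share of C4a in their summed CPM was 19.1% to 30.8% over the 15 libraries. Summed over both, C4 measured 33.7 to 36.3 CPM in control, 129 to 135 in surgery, 123 to 147 in VitD, 19.8 to 46.9 in pMT and 19.0 to 40.2 in pMT/VitD libraries, so the separation does not rest on the split.

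C2 measured 21.9 and 21.5 CPM in control, 44.9 and 42.2 in surgery, 53.2, 43.5 and 40.3 in VitD, 21.1, 21.3, 22.9 and 21.4 in pMT and 22.2, 18.6, 19.9 and 23.2 in pMT/VitD libraries. Its libraries fell into separate narrow ranges, with control, pMT and pMT/VitD libraries between 18.6 and 23.2 CPM and surgery and VitD libraries from 40.3 CPM upward. Its pooled log2 fold change was -1.07 ± 0.08 (SE, adjusted p = 2.35e-06). In GRCr8, C2 stands next to Cfb, its counterpart in the alternative branch, and overlaps Zbtb12, so that reads without strand could be shared with the latter. Cfb ranged over 13.8 to 24.6 CPM and was not called, at -0.17 ± 0.10 (SE, adjusted p = 0.238).

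Of the lectin branch only Masp1 passed the filter. The mannose-binding lectins Mbl1 and Mbl2 had 0 counts in all 15 libraries, and Masp2 reached at most 2 counts, in 1 library. Masp1 measured 147 and 139 CPM in control, 86.5 and 89.4 in surgery, 57.5, 88.6 and 101 in VitD, 130.1, 116, 101 and 128 in pMT and 147, 152, 159.8 and 136 in pMT/VitD libraries. Among the 28 members tested, Masp1 alone had every surgery and VitD library below all others, although VitD 3 and pMT 3 nearly met at 101 CPM. Expression rose by 0.64 ± 0.12 (SE, adjusted p = 0.00199) in pooled log2 fold change. Masp1 overlaps Rtp4 in GRCr8, and its gene yields several proteins, which the counts per gene do not separate.

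In the alternative branch and at C3, 3 of 4 members were called lower in the pooled comparison. C3 measured 0.536 and 0.817 CPM in control, 2.47 and 3.67 in surgery, 2.48, 3.04 and 3.03 in VitD, 1.13, 0.806, 1.21 and 0.703 in pMT and 0.7995, 0.686, 1.10 and 0.681 in pMT/VitD libraries. Each surgery and VitD library stood above each of the others, and the pooled log2 fold change was -1.74 ± 0.18 (SE, adjusted p = 3.11e-05). Cfd, the serine protease that cleaves factor B and is also known as adipsin, measured 32.9 and 28.1 CPM in control, 67.7 and 64.4 in surgery, 81.4, 60.9 and 53.5 in VitD, 29.2, 32.6, 38.5 and 29.3 in pMT and 42.9, 50.4, 27.7 and 41.2 in pMT/VitD libraries. The lowest VitD library, at 53.5 CPM, lay close above the highest pMT/VitD library, at 50.4. Cfd fell with pMT, at -0.86 ± 0.14 (SE, adjusted p = 0.000647) in pooled log2 fold change. Cfp, which stabilises the alternative convertase, measured 4.88 and 5.07 CPM in control, 10.8 and 9.41 in surgery, 15.9, 10.7 and 8.95 in VitD, 4.68, 4.44, 4.34 and 4.75 in pMT and 3.74, 3.13, 5.999 and 4.92 in pMT/VitD libraries. Its pooled log2 fold change was -1.28 ± 0.15 (SE, adjusted p = 9.12e-05), again with no overlap between the operated libraries with and without pMT.

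Of the 7 terminal components, C6, C7 and C8g passed the filter. C8a and C8b had 0 counts in every library, C5 reached at most 5 counts and C9 at most 15. C6 measured 1.34 and 0.817 CPM in control, 6.63 and 6.57 in surgery, 10.5, 6.77 and 6.99 in VitD, 1.72, 1.09, 0.358 and 1.39 in pMT and 0.7995, 0.371, 1.23 and 0.623 in pMT/VitD libraries. The surgery and VitD libraries lay from 6.57 CPM upward and all others at or under 1.72 CPM. Its pooled log2 fold change of -2.99 ± 0.30 (SE, adjusted p = 3.07e-05) was the largest in size among the 28 tested members. C7, the most abundant terminal member per length, measured 44.4 and 46.9 CPM in control, 101 and 108 in surgery, 139, 116 and 105 in VitD, 43.9, 48.0, 50.2 and 20.8 in pMT and 15.9, 15.6, 40.3 and 44.1 in pMT/VitD libraries. The pMT and pMT/VitD libraries of C7 were split, with pMT 4, pMT/VitD 1 and pMT/VitD 2 at 15.6 to 20.8 CPM and the other 5 at 40.3 to 50.2. C7 fell in the pooled comparison, with a log2 fold change of -1.70 ± 0.26 (SE, adjusted p = 0.000574). C8g, whose protein belongs to the lipocalin family, ranged over 3.14 to 6.49 CPM and was not called.

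Among the receptors, 2 of 3 tested members were called lower. C5ar1, the main receptor for the C5 fragment C5a, measured 8.05 and 8.47 CPM in control, 9.59 and 10.1 in surgery, 12.4, 9.81 and 9.07 in VitD, 6.28, 6.97, 5.94 and 4.49 in pMT and 4.54, 4.52, 5.50 and 10.7 in pMT/VitD libraries. The groups overlapped through pMT/VitD 4, which reached 10.7 CPM while the rest of its group lay between 4.52 and 5.50. C5ar1 had -0.73 ± 0.19 (SE, adjusted p = 0.0134) in pooled log2 fold change, and the call was lost without surgery 2 (adjusted p = 0.0582). C3ar1, the receptor for C3a, measured 3.19 and 3.57 CPM in control, 4.07 and 3.78 in surgery, 5.14, 3.99 and 3.98 in VitD, 3.37, 2.69, 2.81 and 1.37 in pMT and 1.99, 1.56, 1.83 and 3.93 in pMT/VitD libraries. Its pooled log2 fold change was -0.76 ± 0.23 (SE, adjusted p = 0.0257), a call lost without surgery 1, surgery 2 or VitD 1 (adjusted p = 0.0942, 0.0759 and 0.0640). C5ar2 ranged over 1.13 to 3.02 CPM and was not called, and Cr2, a receptor of B cells, reached at most 4 counts.

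Of the regulators, 1 of 9 tested members was called lower in the pooled comparison, a share near the 13.3% of all genes, and their median log2 fold change was -0.09. Serping1, the inhibitor of C1r and C1s, measured 91.5 and 87.9 CPM in control, 103 and 103 in surgery, 120.5, 102 and 93.1 in VitD, 94.0, 87.7, 75.3 and 69.5 in pMT and 61.7, 57.2, 87.1 and 89.4 in pMT/VitD libraries. The ranges overlapped only at 93.1 to 94.0 CPM, and the pooled log2 fold change was -0.42 ± 0.12 (SE, adjusted p = 0.0223). That call was lost without surgery 1, surgery 2 or VitD 1 (adjusted p = 0.0777, 0.0834 and 0.0554). Clu, a chaperone that also holds back the terminal complex, was the most abundant of all 37 members per length. It measured 208 and 202 CPM in control, 225 and 225 in surgery, 229, 218 and 213 in VitD, 219.5, 201, 177 and 212 in pMT and 203, 182, 225 and 193 in pMT/VitD libraries. The pMT and pMT/VitD libraries spanned 177 to 225 CPM and overlapped the surgery and VitD libraries at 213 to 229 CPM, with a log2 fold change of -0.14 ± 0.08 (SE, adjusted p = 0.211) in the pooled comparison. Clu overlaps Scara3 in GRCr8.

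The remaining regulators, most of them held on cell surfaces, were not called either in the fit over all 15 libraries. Cd59, which blocks the membrane pore and which GRCr8 names Cd59b, ranged over 116 to 153 CPM, with a pooled log2 fold change of 0.04 ± 0.08 (SE, adjusted p = 0.764). Cd55, which speeds the decay of convertases, ranged over 25.7 to 43.6 CPM, with 0.25 ± 0.09 (SE, adjusted p = 0.0607). Cr1l ranged over 26.3 to 36.0 CPM and vitronectin (Vtn) over 21.3 to 31.5 CPM, and neither was called. The low members Cd46 (0.194 to 0.717 CPM), Cfi (0.234 to 2.91 CPM) and C4bpb (0 to 0.581 CPM) were not called, and C4bpa had 0 counts in every library. For Cfi, the protease that inactivates C3b and C4b, the pooled log2 fold change was large but uncertain, at -1.11 ± 0.43 (SE, adjusted p = 0.0768).

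**Figure D2:**
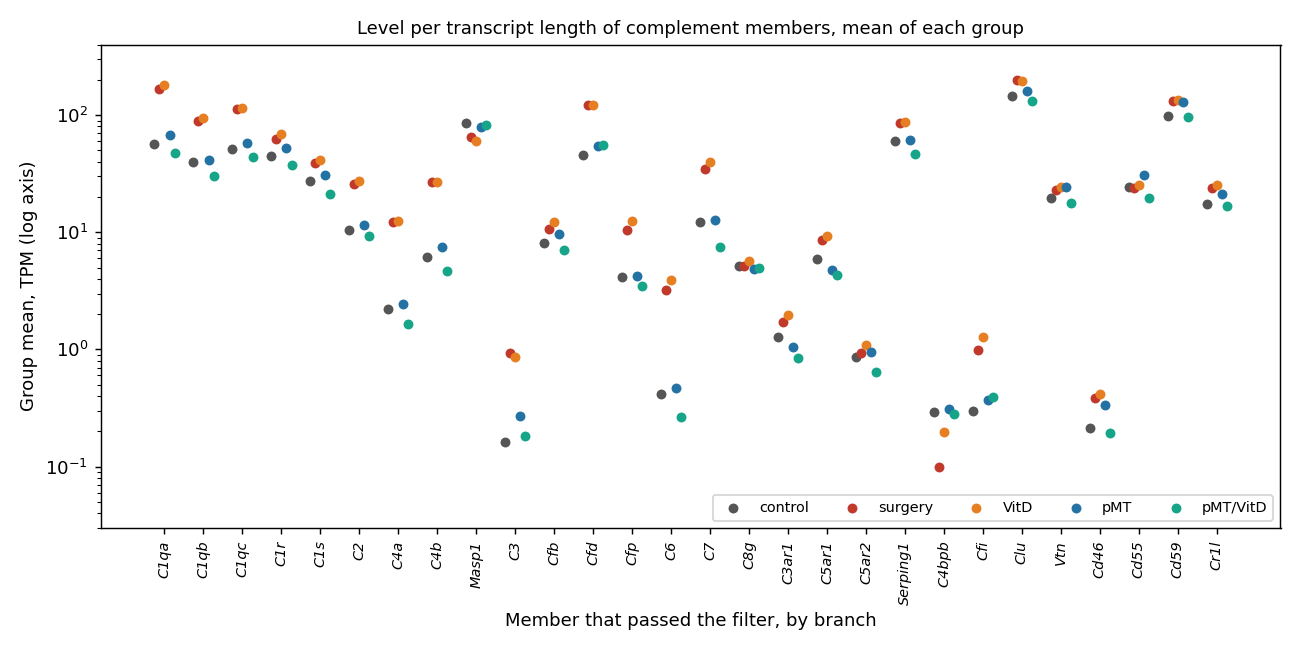
Mean TPM of each group (log axis), the deposited measure of transcript abundance that allows for transcript length, for the 28 members that passed the filter, ordered by branch. Clu, Cd59, C1qa, Cfd and Masp1 stand at the top and C4bpb, Cd46 and C3 at the bottom, and the distance between groups is wide for C4a, C4b, C3 and C6.

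Levels of different genes were compared by TPM, as deposited by the authors, which allows for transcript length. Over the 15 libraries Clu had a mean of 163 TPM, Cd59 117, C1qa 96.6, Cfd 76.0, Masp1 75.3, C1qc 71.9 and Serping1 65.5. The middle of the range held C1qb (55.0), C1r (52.3), C1s (31.1), C7 (19.7), C2 (15.9) and C4b (13.1). C3 was near the foot, at 0.440 TPM, with 0.163 in the control mean and 0.932 in the surgery mean. Among the regulators held on cell surfaces the mean ran from 0.305 TPM for Cd46 through 20.8 for Cr1l and 24.9 for Cd55 to the 117 of Cd59. For the 5 members at 0 counts in every library, transcripts were not detectable at this depth. The floor of 3 counts covers counting error only.

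What surgery changed is read from the surgery and control groups. Surgery against control called 6 of 28 members higher and 0 lower, beside 1.25% of all genes higher and 0.296% lower. They were C4a (2.16 ± 0.21, adjusted p = 0.000277), C4b (1.83 ± 0.41, adjusted p = 0.0412), C2 (1.01 ± 0.14, adjusted p = 0.00468), C3 (2.18 ± 0.33, adjusted p = 0.00817), C6 (2.61 ± 0.55, adjusted p = 0.0333) and Cfd (1.12 ± 0.24, adjusted p = 0.0379), as log2 fold changes. The median was 0.24 over the members and -0.01 over all genes. C1qa had 1.24 ± 0.31 (SE, adjusted p = 0.0618), C1qb 0.86 ± 0.24 (SE, adjusted p = 0.0839), C1qc 0.84 ± 0.24 (SE, adjusted p = 0.0949) and Cfp 1.02 ± 0.27 (SE, adjusted p = 0.0743), none of them called. When pMT 4 and pMT/VitD 4 were left out of the fit, which then estimates the shared spread without them, 9 members were called higher, the 6 above with C1qa (adjusted p = 0.0176), C1qb (adjusted p = 0.0305) and C1qc (adjusted p = 0.0289), beside 3.16% of all genes higher. Masp1 had -0.70 ± 0.20 (SE, adjusted p = 0.0958). With 2 libraries on each side, leaving any 1 out leaves a group of 1 library. Most calls were then lost, among members and over all genes, and C4a alone kept its call in all 4 of these fits.

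VitD against control shows operated muscle that received cholecalciferol. Here 10 members were called higher and 1 lower, beside 5.48% of all genes higher and 3.20% lower. The higher members were C4a (2.19 ± 0.20, adjusted p = 0.000140), C4b (1.83 ± 0.39, adjusted p = 0.0136), C3 (2.07 ± 0.32, adjusted p = 0.00374), C2 (1.08 ± 0.13, adjusted p = 0.00102), C6 (2.90 ± 0.53, adjusted p = 0.00788), C1qa (1.34 ± 0.29, adjusted p = 0.0165), C1qb, C1qc, Cfd and Cfp. The lower member was Masp1, at -0.80 ± 0.18 (SE, adjusted p = 0.0196). The median was 0.36 over the members and -0.01 over all genes. C2 and C4a were called with any 1 library left out. Without control 1 or control 2, which leaves 1 control library, fewer members and fewer of all genes were called. Surgery and VitD were compared with the same 2 control libraries.

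VitD against surgery called 0 of 28 members and 0% of all 17201 genes in edgeR's test, where 139 genes had an unadjusted p under 0.05, and DESeq2 called 0. The difference in log2 expression was 0.03 (95% interval -0.36 to 0.41) for C4a, 0.07 (95% interval -0.20 to 0.33) for C2, -0.11 (95% interval -0.70 to 0.49) for C3, 0.10 (95% interval -0.50 to 0.70) for C1qa and 0.29 (95% interval -0.69 to 1.27) for C6. For C2, C4a, C3 and C1qa the interval lay within 1 log2 unit on either side, while for C6 it reached beyond 1. A result that misses the threshold does not show that the groups were alike.

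pMT against surgery sets operated muscle with the mitochondria beside operated muscle with no injection, so an effect of the injection itself cannot be told apart in this comparison. It called 10 of 28 members lower and 0 higher, beside 1.55% of all genes lower and 0.395% higher. The log2 fold changes were -2.20 ± 0.17 (SE, adjusted p = 3.59e-05) for C4a, -1.01 ± 0.11 (SE, adjusted p = 0.000634) for C2, -1.67 ± 0.26 (SE, adjusted p = 0.00613) for C3, -2.55 ± 0.43 (SE, adjusted p = 0.00877) for C6 and -1.79 ± 0.33 (SE, adjusted p = 0.0137) for C4b. C1qa (-1.20 ± 0.26, adjusted p = 0.0301), C1qb, C1qc, Cfd (-1.03 ± 0.20, adjusted p = 0.0199) and Cfp (-1.15 ± 0.23, adjusted p = 0.0209) were also called. C7 had -1.36 ± 0.39 (SE, adjusted p = 0.0998) and Masp1 0.43 ± 0.18 (SE, adjusted p = 0.278). The median was -0.47 over the members and 0.02 over all genes. Only C2 and C4a kept their call in all 6 fits with 1 library left out. Without pMT 1, 2, 3 or 4 in turn, 6, 5, 7 and 9 members were called. Calls over all genes were then 136, 123, 210 and 290, against 334 in the main fit. Without surgery 1 or surgery 2, which leaves 1 surgery library, fewer members and fewer of all genes were called.

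The combined treatment was compared with the same 2 surgery libraries. Against them, pMT/VitD called 11 members lower and 1 higher, beside 5.03% of all genes lower and 2.40% higher. C4a had -2.49 ± 0.17 (SE, adjusted p = 7.60e-06), C6 -3.14 ± 0.45 (SE, adjusted p = 0.002001), C4b -2.18 ± 0.33 (SE, adjusted p = 0.00246), C3 -1.91 ± 0.27 (SE, adjusted p = 0.00177), C7 -1.85 ± 0.39 (SE, adjusted p = 0.0138) and C1qa -1.42 ± 0.26 (SE, adjusted p = 0.00589). C1qb, C1qc, C2, Cfd and Cfp were the other lower members, and Masp1 was higher, at 0.76 ± 0.18 (SE, adjusted p = 0.0245). The median was -0.57 over the members and 0.00 over all genes. C2, C3, C4a, C4b and C6 were called in every fit with a library left out. Fewer members and fewer of all genes were called without surgery 1 or surgery 2, which leaves 1 surgery library.

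Against VitD alone, which was also injected, pMT/VitD called 15 members lower and 1 higher, beside 12.2% of all genes lower and 9.66% higher. Here the proteases C1r (-0.46 ± 0.15, adjusted p = 0.03995) and C1s (-0.57 ± 0.18, adjusted p = 0.0324), the receptor C3ar1 (-0.91 ± 0.30, adjusted p = 0.0450) and the inhibitor Serping1 (-0.51 ± 0.16, adjusted p = 0.0363) were called lower beside C1qa, C1qb, C1qc, C2, C3, C4a, C4b, C6, C7, Cfd and Cfp, and Masp1 was higher (0.85 ± 0.16, adjusted p = 0.00256). C6 had -3.43 ± 0.42 (SE, adjusted p = 0.000292) and C4a -2.51 ± 0.16 (SE, adjusted p = 1.48e-06). The median was -0.63 over the members and 0 over all genes. With 1 library left out, 11 of the 16 kept their call in all 7 fits. C1r, C1s and Serping1 kept it in 3, C3ar1 in 1 and Cfd in 6. The interaction is the effect of pMT in the presence of VitD minus its effect without. It called 0 members and 0% of all genes (888 with an unadjusted p under 0.05, DESeq2 0). Without pMT 4 and pMT/VitD 4 it called no member either, beside 0.594% of all genes lower and 1.30% higher. C3ar1 (-0.87 ± 0.24, adjusted p = 0.0698) and C4b (-0.90 ± 0.26, adjusted p = 0.0753) then came nearest. The sets of calls in the 2 settings were thus not shown to differ.

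**Figure D3:**
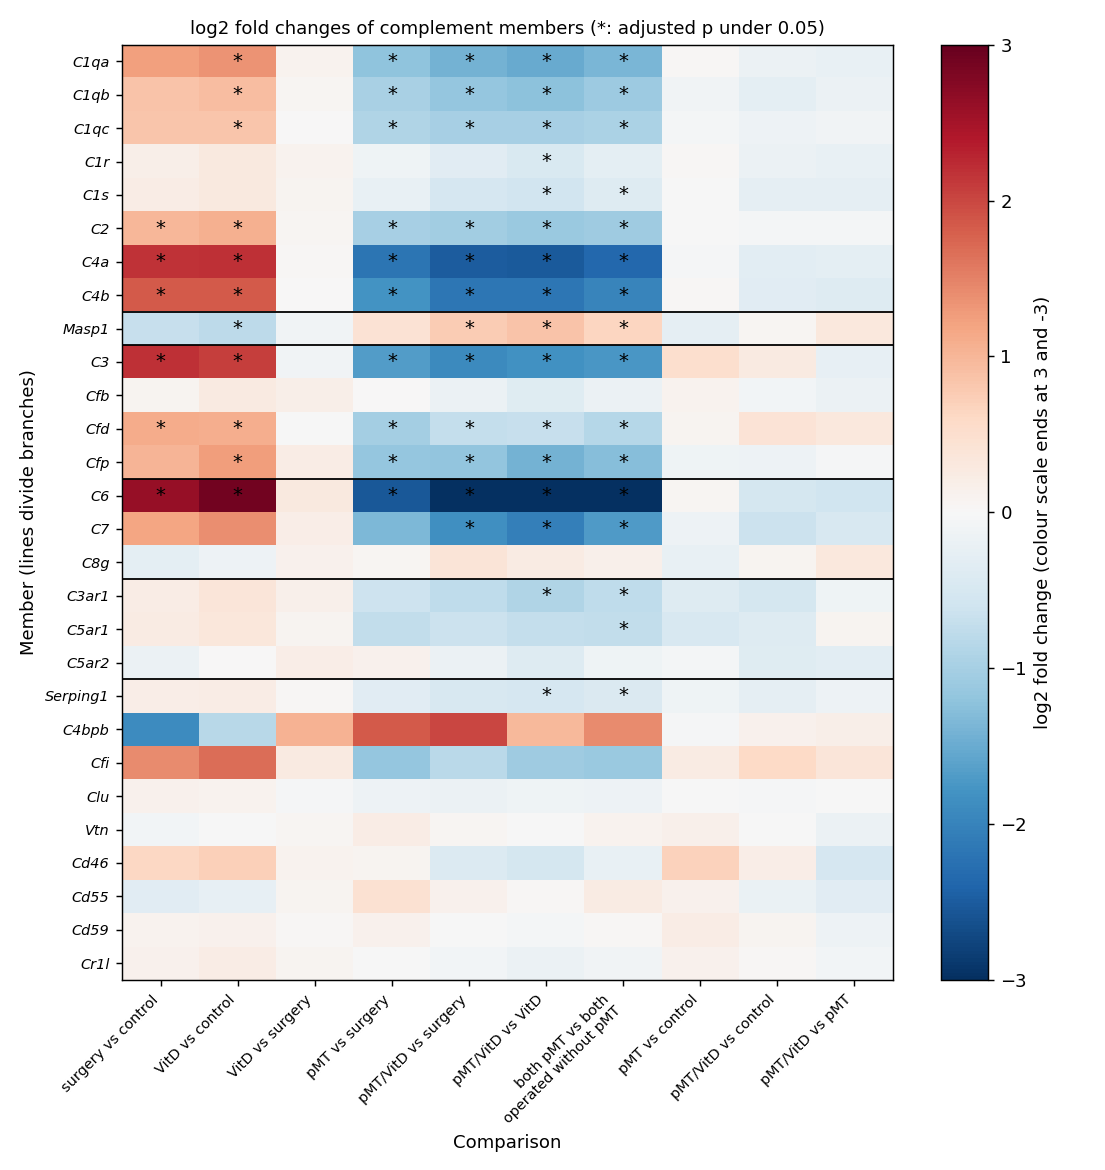
log2 fold changes (colour) of the 28 tested members in 10 comparisons of groups, with an asterisk where the adjusted p was under 0.05 and lines between branches. Red columns for surgery and VitD against control face blue columns for the groups with pMT against those without, and the columns for VitD against surgery and the last 3, pMT and pMT/VitD against control and against each other, hold no asterisk.

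The levels after pMT were then set against uninjured muscle. pMT against control called 0 members and 0% of all genes, with 528 genes at an unadjusted p under 0.05 and 0 calls in DESeq2. The difference was -0.04 (95% interval -0.41 to 0.34) for C4a, 0.03 (95% interval -0.70 to 0.77) for C4b, 0.00 (95% interval -0.25 to 0.25) for C2, 0.04 (95% interval -0.54 to 0.61) for C1qa and 0.51 (95% interval -0.12 to 1.15) for C3. pMT/VitD against control also called 0 members and 0% of all genes, with 496 genes at an unadjusted p under 0.05 and 1 call in DESeq2, which was no member. C4a differed by -0.33 (95% interval -0.70 to 0.05), C2 by -0.05 (95% interval -0.30 to 0.21) and C7 by -0.65 (95% interval -1.50 to 0.19). The control group has 2 libraries, and the intervals of C4b, C3 and C7 are wide.

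Between the pMT groups, pMT/VitD against pMT called 0 members and 0% of all genes, with 1737 genes at an unadjusted p under 0.05 and 89 calls in DESeq2, none of them a member. This comparison depends on the libraries that stand apart. Without pMT 4 and pMT/VitD 4 it called 7 members lower (C1r, C1s, C4a, C4b, C7, C3ar1 and Cd55) and 1 higher (Cfi), beside 8.81% of all genes lower and 9.45% higher. The log2 fold changes were then -0.90 ± 0.17 (SE, adjusted p = 0.00522) for C4b and -0.98 ± 0.29 (SE, adjusted p = 0.0373) for C7. The members were chosen with earlier results of these data known, so these shares are not a test of the members. A trend with transcript length moved with this split. Spearman's rho across genes, between length (taken as a gene's mean count over its mean TPM) and a library's deviation from the mean of all libraries, was 0.02, 0.36 and 0.45 in pMT 1 to 3 and -0.32 in pMT 4, and it was -0.39, -0.39 and -0.17 in pMT/VitD 1 to 3 and 0.15 in pMT/VitD 4. Its part in these 8 calls was not tested. These libraries were left out because of their expression values, so this fit is a description of what the comparison rests on.

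The 4 members with the largest falls in the pooled comparison, C6, C4a, C4b and C3, are shown here with their promoters, since they moved together. RefSeq's promoter table for GRCr8 holds 300-base windows for 25 of the 37 members. Printed are the 200 bases that end 51 bases before the transcript start used in that table, 5′ to 3′ on the strand of the gene, in lower case. Capitals mark the match of the 1 motif of 5 searched that was found in them, TTGCNNAA of the C/EBP factors. C4a lies at chr20:4010107-4010306 (+), C4b at chr20:4201729-4201928 (+), C3 at chr9:2201390-2201589 (-) and C6 at chr2:55573383-55573582 (+).
C4a: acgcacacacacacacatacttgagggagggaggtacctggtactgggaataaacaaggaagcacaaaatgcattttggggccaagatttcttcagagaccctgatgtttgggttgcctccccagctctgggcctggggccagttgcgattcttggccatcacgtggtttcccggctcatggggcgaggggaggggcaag
C4b: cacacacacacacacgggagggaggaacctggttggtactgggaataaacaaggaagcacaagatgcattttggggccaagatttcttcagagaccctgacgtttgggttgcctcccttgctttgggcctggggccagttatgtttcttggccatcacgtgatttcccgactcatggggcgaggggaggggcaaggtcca
C3: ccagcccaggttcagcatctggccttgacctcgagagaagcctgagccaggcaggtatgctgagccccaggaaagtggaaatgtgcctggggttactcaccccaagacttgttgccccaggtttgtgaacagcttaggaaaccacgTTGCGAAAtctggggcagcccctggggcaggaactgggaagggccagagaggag
C6: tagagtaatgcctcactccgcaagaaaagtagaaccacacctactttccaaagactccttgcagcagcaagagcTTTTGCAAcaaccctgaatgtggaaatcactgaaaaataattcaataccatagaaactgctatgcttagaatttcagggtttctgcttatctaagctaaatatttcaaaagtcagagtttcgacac
The windows of C4a and C4b were identical at 279 of 291 aligned bases (95.9%).

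The motifs were searched on both strands of the 300-base windows. TTGCNNAA stood in the windows of C1r, C3, C6, C8a, C8b and C4bpa, 6 of 25 members, and in 10.5% of 27457 gene promoters. GGANNTTCC of NF-kB stood in C1qa and C1qb (4.08% of all promoters), and TTCNNNGAA of STAT factors in C1qa, C8a, C5ar2, C4bpb and Vtn (8.68%). GAGGAAG of PU.1 stood in Mbl1, C5ar2 and C4bpb (12.4%) and GAAANNGAA of the interferon response in Vtn (9.50%). The windows of C4a and C4b held none of these 5 motifs. A match is a description of letters and says nothing of binding.

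Other genes of the pathway were read beside the members. Of these, 13 were found by symbol and 10 were tested. In the pooled comparison 3 were lower and 1 was higher. Ficolin A (Fcna), a lectin that recruits Masp proteases, had a log2 fold change of -1.46 ± 0.23 (SE, adjusted p = 0.000729). The chains of complement receptor 3, Itgam (-1.08 ± 0.19, adjusted p = 0.00119) and Itgb2 (-0.84 ± 0.13, adjusted p = 0.000535), were also lower. C1qbp, a mitochondrial protein despite its name, was higher, at 0.32 ± 0.11 (SE, adjusted p = 0.0396). In VitD against control Itgb2 was the 1 gene called, higher (0.87 ± 0.21, adjusted p = 0.0249). Against surgery, pMT/VitD had Fcna (-1.52 ± 0.35, adjusted p = 0.0201), Itgam (-1.33 ± 0.28, adjusted p = 0.0138) and Itgb2 (-0.99 ± 0.19, adjusted p = 0.00910) lower. Against VitD the same 3 genes were lower and C1qbp was higher (0.52 ± 0.14, adjusted p = 0.0183). In edgeR's test 0 of 10 were called in surgery against control and 0 of 10 in pMT against surgery, where 3 genes in each had an unadjusted p under 0.05. Fcnb, Itgax, Cd93, Ptx3, Susd4 and Csmd1 were not called in the pooled comparison, and Colec10, Colec11 and Vsig4 did not pass the filter.

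Summed markers of macrophages and of fibroblasts moved with the members. In bulk tissue, fewer cells of a type and less RNA per cell cannot be told apart. The 10 macrophage markers (Cd68, Csf1r, Cd163, Mrc1, Cd14, Aif1, Adgre1, Tyrobp, Fcgr1a and Lyz2) summed to 206 to 208 CPM in control, 372 to 373 in surgery, 327 to 485 in VitD, 182 to 226 in pMT and 169 to 222 in pMT/VitD libraries. In the pooled comparison 9 of the 10 were lower, among them Adgre1 (-1.38 ± 0.16, adjusted p = 6.42e-05) and Lyz2 (-1.05 ± 0.13, adjusted p = 9.50e-05). The 6 fibroblast markers (Pdgfra, Dcn, Lum, Col1a1, Col3a1 and Dpt) summed to 2541 to 2567 CPM in control, 4373 to 4399 in surgery, 3694 to 6882 in VitD, 2534 to 2932 in pMT and 1917 to 2729 in pMT/VitD libraries. In the pooled comparison 4 of them were lower, led by Col1a1 (-1.43 ± 0.19, adjusted p = 0.000213), while Dcn had -0.05 ± 0.10 (SE, adjusted p = 0.770). Macrophage markers were called higher for 3 of 10 in surgery and 5 of 10 in VitD against control, and lower for 4 of 10 in pMT against surgery and 9 of 10 in pMT/VitD against either. Fibroblast markers were called for 0 and 4 of 6 in the first pair of comparisons, for 1 of 6 when pMT was set against surgery, and for 3 and 5 of 6 when pMT/VitD was set against surgery and against VitD. The part of these cells in the changes of C1q, C4 and the other members was not tested.

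The 5 adipocyte markers, of interest for Cfd, summed to 21.4 to 22.3 CPM in control, 21.8 to 22.4 in surgery, 17.2 to 34.4 in VitD, 22.2 to 24.9 in pMT and 20.1 to 37.1 in pMT/VitD libraries, and 0 of 5 were called in any of the comparisons. The 6 hepatocyte markers reached at most 0.388 CPM in sum, with 0.133 to 0.2998 in control, 0 to 0.0409 in surgery, 0.0781 to 0.277 in VitD, 0.0640 to 0.388 in pMT and 0.0864 to 0.215 in pMT/VitD libraries. The 4 endothelial markers summed to 149 to 226 CPM, and in the pooled comparison Kdr was higher and Pecam1 lower. Neutrophil markers reached 10.4 CPM in sum, at the highest in the pMT/VitD group, and B cell markers 1.51, with 1 of 3 (Mpo, higher) and 0 of 3 called in the pooled comparison. Skeletal muscle fibre genes were called once in the pooled comparison, Myh4 at 0.88 ± 0.26 (SE, adjusted p = 0.0235). Their sums were 163104 to 177652 CPM in control, 140274 to 143552 in surgery and 112910 to 148992 in VitD libraries. In pMT and pMT/VitD libraries they were 144271 to 163604 and 167040 to 196439 CPM. In pMT/VitD against VitD 2 of 6 were called higher, beside 9.66% of all genes.

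**Figure D4:**
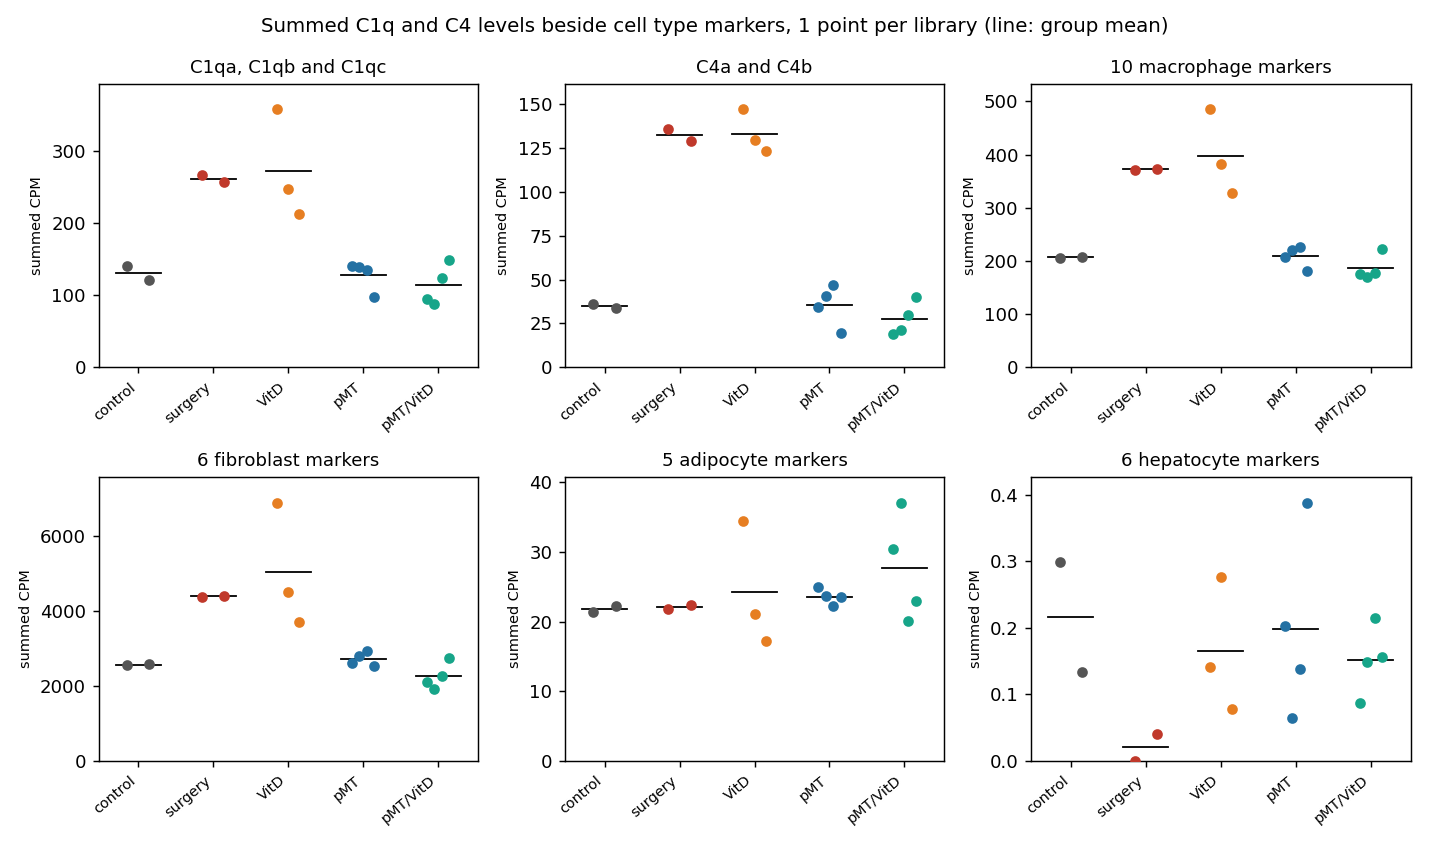
Summed CPM (linear axes from 0) of C1q, C4 and 4 marker lists in each library, with the group mean as a line. C1q, C4, macrophage and fibroblast sums are high in the surgery and VitD libraries, adipocyte sums are not, and hepatocyte sums stay at or under 0.388 CPM.

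The genes with the pattern most like C1qa over the 15 libraries, by Spearman's rho of log2 CPM, were Mmp2 (0.986), C1r (0.982), Aph1a (0.982), Igsf8 (0.979) and Col6a1 (0.975). The list holds another member, C1r, and matrix genes in Mmp2 and Col6a1. For C3 they were RGD1561715, listed as a transcribed pseudogene (0.929), Ugt1a6 (0.925), Josd1 (0.925), R3hcc1l (0.921) and Nr1d2 (0.911), none of them a member. These rankings describe 15 libraries that share the contrast between groups, and they carry no p.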

How the data were processed

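Total RNA from rat multifidus muscle was sequenced as paired ends in 15 libraries. Per the labels and the study's methods, Trimmomatic 0.38 served the authors for trimming, HISAT2 2.1.0 for alignment to rn6 with NCBI RefSeq genes, SAMtools 1.9 for file handling and StringTie 2.1.3b for assembly and abundance. The deposited table holds, for each gene and library, a raw read count, an FPKM value and a TPM value that the authors computed. Strand and the treatment of reads that match several genes are not given in the sources used here. The counts served for all tests, the TPM values for levels between genes, and the FPKM values were not used.

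The members and gene lists were chosen with earlier results of these data known. One edgeR 4.0.16 quasi-likelihood fit (R 4.3.3, limma 3.58.1) held all 15 libraries with 1 coefficient per group, TMM factors and edgeR's filter on low counts by group, which left 17201 of 37991 genes. P-values were adjusted by Benjamini-Hochberg over all genes tested, and a gene was called at an adjusted p under 0.05. The error given with ± is the SE, the log2 fold change over the square root of its F statistic, and 95% intervals use the t quantile of the fit. The study used edgeR 3.40.2 (exactTest, fold change of at least 2), which was run as an alternative. The pooled comparison gives the groups equal weight. All 37 members were accounted for by branch. Values in every library were given for members with a mean of at least 1 CPM called in surgery or VitD against control, pMT against surgery or the pooled comparison, and for the most abundant member of each branch by TPM. The scripts were tested on simulated data. Alternatives were other scalings, filters, DESeq2 1.42.0, fits of the compared groups alone, a replicate block, removal of a length trend, and libraries left out. One gene of the list of other pathway genes is not reported here.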

Additional observations from a re-analysis of the deposited data

Results flagged for a closer look

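In groups of 4 libraries, a value was singled out where its gap to the nearest other library passed Dixon's 95% critical share of the group's range. Of 56 such groups (28 members in pMT and pMT/VitD), 7 had a value of this kind, where chance gives about 2.8. All 7 lay in the pair of libraries that stand apart from their groups over the more abundant genes.

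In pMT 4, C1qa was at 34.1 CPM against 51.2 to 52.1 in the other pMT libraries, and C1qc was at 37.8 against 51.7 to 53.4. The proteases C1r, at 85.8 CPM against 105.8 to 106.8, and C1s, at 45.5 against 68.3 to 68.9, were low there too, as was C4a, at 6.01 against 9.03 to 9.32. Cfi was high there, at 1.53 CPM against 0.358 to 0.472. In pMT/VitD 4, C5ar1 was at 10.7 CPM, and its group otherwise ran from 4.52 to 5.50.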

How the results depend on the processing

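No change of direction was found for any of the 71 member calls under the alternatives run. The count of members called in surgery against control (6) was 11 with DESeq2, which called 1001 of all genes against 266 in edgeR's test. It was 19 in a fit of the 2 groups alone and 3 with a replicate block. For VitD against control the count (11) was 6 in a fit of the 2 groups alone. Counts over all genes are not given here for these fits, so their counts of members have no background beside them. With the replicate block, pMT against surgery called 4 in place of 10. Over 24 pairs of libraries with the same replicate number, correlations of deviations were -0.50 to 0.17, of which 2 were over 0.1. Pairs with different numbers were not compared, so these values do not settle whether the numbers pair the libraries. pMT/VitD against pMT called 8 in place of 0 without pMT 4 and pMT/VitD 4. With 1 library left out of a group of 3 or 4, calls over all genes moved with the counts of members. For VitD against control 8 to 11 members were called, beside 612 to 2396 of all genes. The counts were 5 to 9 (123 to 290 of all genes) for pMT against surgery and 11 to 15 (598 to 2199) for pMT/VitD against surgery. They were 11 to 17 (1855 to 4561) for pMT/VitD against VitD and 13 to 18 (3056 to 4633) for the pooled comparison. Fits without a control or surgery library leave 1 library in that group, which was assumed to vary like the others. In those fits of the comparisons that had calls, fewer members and fewer of all genes were called. Of the 71 calls, 50 held with the block, 58 in fits of the compared groups alone, 67 without the length trend and 69 to 71 under the other scalings and filters, DESeq2 and without both libraries that stand apart. Under the study's own rule with unadjusted p, pMT against surgery called 9 members lower and 1 higher, with no count over all genes beside it here. Depth limits C5, C9, Cr2 and Masp2, which had 15 counts or fewer in any library.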
